A study of Mus musculus with 4 samples.

Results

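The 7 genes described here, Gpihbp1, Lpl, Cd36, Pparg, Cpt2, Pdk4 and Hadhb, act in the release of fatty acids from lipoproteins at the capillary wall and in their uptake and oxidation. They were taken by their gene symbols from 11138 genes measured in cardiac endothelium, the cells lining the blood vessels of the heart, of mice given lipopolysaccharide (LPS), an outer-membrane component of Gram-negative bacteria. They were chosen by measured values: the 7 symbols were picked with their log2 ratios of LPS over saline on these arrays already known, so the values below describe these arrays and are not tested. Each gene was represented by 1 long oligonucleotide printed as 2 spots, which made 14 of the 32448 spots of an array.

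Endothelium was isolated from hearts of mice injected intraperitoneally with LPS or with saline, and its amplified RNA was compared on Operon long-oligonucleotide arrays with 2 colours at 4 h and at 24 h. Each time had 2 arrays: LPS RNA carried Cy5 on replicate 1 and Cy3 on replicate 2, a dye reversal. The labels name no strain, age, dose, number of animals or way of isolating the cells, and no separate animals for the reversed arrays, so each pair of arrays was counted as 1 replicate and LPS was not tested against saline. The sources used here do not say whether both times shared the saline RNA.

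Every value below is a log2 ratio of LPS over saline, thus a difference between 2 RNA samples and not a level, and 1 log2 unit is a 2-fold difference. Means are given ± SD over the pair of arrays at a time (n = 2 arrays); this error covers the arrays and dyes only, and no spread among mice. A gene is called higher or lower where both arrays lay at least 1 log2 unit from 0 on the same side. The deposited values of the LPS-in-Cy3 arrays had their sign turned. This direction is likely and not certain, since the table does not say which dye was divided by which: over all spots the 2 arrays of a time correlated at only -0.056 at 4 h and -0.064 at 24 h before turning, and over oligonucleotides with agreeing spots at -0.37 and -0.50. Among oligonucleotides with agreeing spots that were at least 2-fold on both arrays of a time, 180 of 186 at 4 h had opposite deposited signs. At 24 h these were 435 of 458. The labels also list LPS RNA as channel 2 on each array whatever its dye, which leaves the direction unsettled. On the 14 spots of the 7 genes, the deposited signs of the 2 arrays were opposite in 10 at 4 h and in 12 at 24 h; since the genes were picked for turned ratios, these counts say nothing of the direction. If the ratios were Cy3 over Cy5, higher and lower would change places throughout. If the table already had both arrays the same way round, those spots would lie on opposite sides of 0 on the arrays of a pair.

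Lipoprotein lipase, encoded by Lpl, hydrolyses the triglycerides of circulating lipoproteins. It is made mostly by parenchymal cells such as cardiomyocytes and adipocytes, and GPIHBP1, a protein anchored in the capillary endothelial membrane, binds it and carries it to the luminal surface. Released fatty acids can be taken up through CD36, enter mitochondria through the carnitine shuttle, of which CPT2 is the inner-membrane enzyme, and are shortened by beta oxidation, in which HADHB is the beta subunit of the trifunctional protein. PDK4 phosphorylates and thereby inhibits pyruvate dehydrogenase, and PPARG is a nuclear receptor for fatty acid ligands that induces genes of lipid uptake and storage, Lpl and Cd36 among them. The heart draws most of its energy from fatty acids.

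At 24 h, 6 of the 7 genes were called higher in LPS-injected mice and 0 lower, against 3.48% of all genes called higher and 3.52% called lower. The exception was Hadhb, whose mean was 0.27 ± 0.37. At 4 h, Hadhb was the 1 gene called higher and 0 were called lower, against 2.25% and 0.997% of all genes. Nothing is read from these shares, since the genes were picked with this contrast known. The median of the 7 genes was -0.07 at 4 h and 1.65 at 24 h, where that of all genes was -0.02 at both times.

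**Figure D1:**
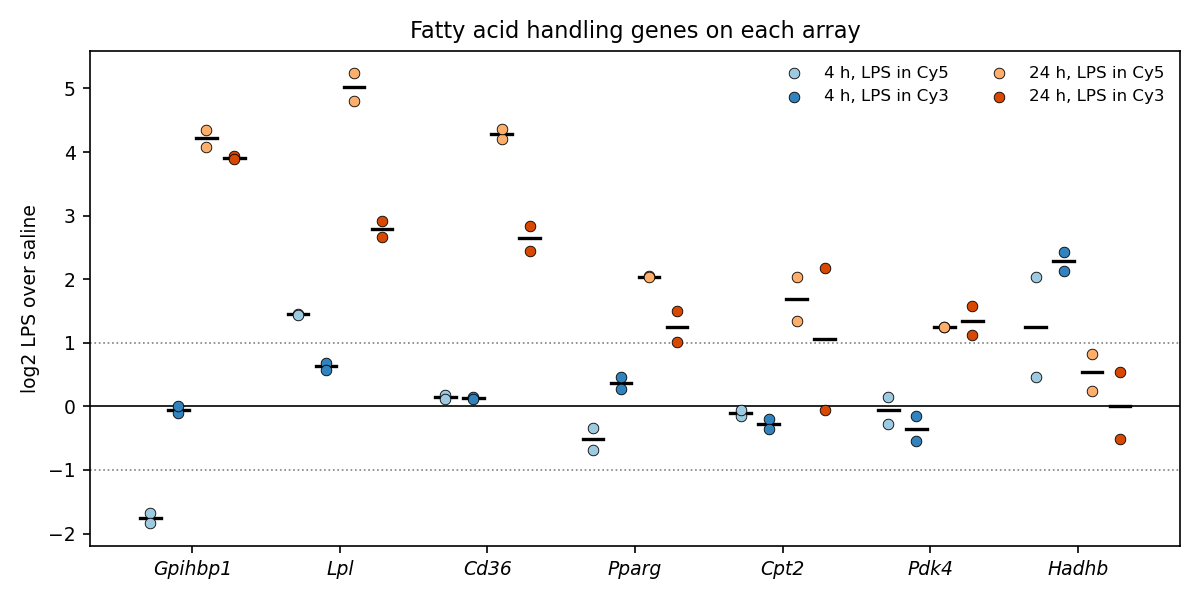
Log2 ratio of LPS over saline (y axis) of the 7 genes on each of the 4 arrays; points are the 2 spots of the oligonucleotide, black bars their mean, and dotted lines mark 2-fold. Both 24 h arrays lie above both 4 h arrays for 6 genes, and Hadhb runs the other way; for Cpt2, 1 spot on the LPS-in-Cy3 array of 24 h lies at -0.06, where the other lies at 2.18.

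The letters of 4 motifs were looked for on both strands of the mouse promoters, 250 bases before to 50 after a start site, because 6 of the genes were high together at 24 h and PPARG binds paired nuclear receptor half-sites. RefSeq promoters of build GRCm38.p6 were at hand for 5 of the 7 genes, 7 promoters in all, since Pparg has 3 starts, and none for Gpihbp1 or Lpl. The motifs were the half-site AGGTCA, present in 16.3% of 32851 promoters, the GC box GGGCGG, in 35.7%, the CCAAT box CCAAT, in 37.4%, and the TATA box TATAAA, in 13.6%. The 250 bases before the start are shown, in the direction of transcription, for Cd36, which held the half-site, for Cpt2 and Pdk4, which also were higher at 24 h, and for Hadhb, which was not; capitals mark the motifs.
Cd36, chr5:17835897-17836146, minus strand: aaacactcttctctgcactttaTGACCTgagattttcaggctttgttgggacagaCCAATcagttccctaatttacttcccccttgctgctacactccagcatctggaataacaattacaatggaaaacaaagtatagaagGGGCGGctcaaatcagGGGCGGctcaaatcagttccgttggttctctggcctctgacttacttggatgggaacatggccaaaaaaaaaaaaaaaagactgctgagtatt
Cpt2, chr4:107923590-107923839, minus strand: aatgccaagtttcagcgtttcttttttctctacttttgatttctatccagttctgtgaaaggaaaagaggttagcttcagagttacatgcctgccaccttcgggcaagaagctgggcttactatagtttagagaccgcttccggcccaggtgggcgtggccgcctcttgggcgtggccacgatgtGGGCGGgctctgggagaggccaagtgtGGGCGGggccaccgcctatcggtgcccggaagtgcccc
Pdk4, chr6:5496279-5496528, minus strand: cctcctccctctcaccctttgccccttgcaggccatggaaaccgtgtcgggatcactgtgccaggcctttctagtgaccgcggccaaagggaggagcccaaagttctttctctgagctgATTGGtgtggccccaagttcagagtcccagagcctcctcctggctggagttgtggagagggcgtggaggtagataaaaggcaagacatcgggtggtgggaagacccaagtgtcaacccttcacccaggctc
Hadhb, chr5:30155003-30155252, plus strand: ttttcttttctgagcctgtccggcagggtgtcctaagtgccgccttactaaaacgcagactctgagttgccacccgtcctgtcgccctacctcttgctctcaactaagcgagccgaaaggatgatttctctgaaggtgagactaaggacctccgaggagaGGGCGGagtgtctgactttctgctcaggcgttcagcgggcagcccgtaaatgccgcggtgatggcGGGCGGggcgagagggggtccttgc

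The 4 promoters shared none of the motifs throughout. Cd36 held 1 half-site in reverse, TGACCT, at position -228 from the start, with 2 GC boxes and 1 CCAAT box, and its 300-base window was 43% G and C against a median of 52.7% over all promoters. Cpt2 held 3 GC boxes and Hadhb 4, of which 2 in each lie before the start, and neither had a half-site. Pdk4 held 1 CCAAT box in reverse, ATTGG, and no half-site or GC box. For Pparg itself, 2 of the 3 promoters held 1 half-site each. A match is a run of letters and does not show that a factor binds there. Only single half-sites were looked for and not the pairs that PPARG binds, so nothing on PPARG is read from them.

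Gpihbp1, the endothelial carrier of lipoprotein lipase, had the highest mean of the 7 genes at 24 h. Its values were 4.21 on the array with LPS in Cy5 and 3.91 on the reversed array, 18.6-fold and 15.0-fold, with a mean of 4.06 ± 0.21. All 4 of its spots at that time lay between 3.89 and 4.35, and its mean ranked 7 among 11138 genes. With replicate 2 not turned, its mean was 0.15 and its rank 4106. At 4 h its values were -1.75 and -0.06, with a mean of -0.90 ± 1.20, so that it was 3.37-fold lower on 1 array and near 0 on the other. Of the spots behind -0.06, 1 had a deposited ratio of exactly 1, and whether such spots were measured or filled in is unknown.

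Lpl, the lipase itself, came close behind at 24 h and was the only one of the 6 genes with a mean of at least 1 already at 4 h. Its 24 h values were 5.02 and 2.79, 32.5-fold and 6.91-fold, with a mean of 3.91 ± 1.58 and rank 10 of all genes (1.12 and rank 485 with replicate 2 not turned). Both arrays lay far above 2-fold, but they lay farther apart than those of Gpihbp1. At 4 h its values were 1.45 and 0.63 (mean 1.04 ± 0.58), and the second array kept it from being called. The spots of each array lay close together, at 1.46 and 1.44, at 0.69 and 0.58, at 4.81 and 5.24, and at 2.66 and 2.91.

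Cd36, the fatty acid and lipoprotein scavenger receptor of capillary endothelium, was near 0 at 4 h and far above it at 24 h. Its 4 h values were 0.15 and 0.13, with a mean of 0.14 ± 0.01. Its 24 h values were 4.28 and 2.65, 19.4-fold and 6.26-fold, with a mean of 3.46 ± 1.15 and rank 18 of all genes (0.82 and rank 992 with replicate 2 not turned). As for Lpl, the array with LPS in Cy5 gave the higher ratio. All 4 of its 24 h spots lay between 2.45 and 4.36.

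Pparg, the nuclear receptor, was higher at 24 h on a smaller scale. Its 24 h values were 2.04 and 1.25, 4.12-fold and 2.38-fold, with a mean of 1.65 ± 0.56, and 3.17% of all genes had a higher mean. Its 4 spots lay between 1.01 and 2.04, each at least 2-fold. At 4 h its arrays lay on opposite sides of 0, at -0.51 and 0.37 (mean -0.07 ± 0.62).

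Cpt2, which regenerates acyl-CoA from acylcarnitine inside mitochondria, rested on fewer agreeing spots. Its 24 h values were 1.69 and 1.06, with a mean of 1.37 ± 0.45, and 5.07% of all genes had a higher mean. On the reversed array its spots lay at 2.18 and -0.06, the latter a deposited ratio of exactly 1; without that spot the 24 h mean was 1.93. Its 4 h values were -0.11 and -0.28 (mean -0.19 ± 0.12). It was the 1 gene of the 6 in which not every 24 h spot was 2-fold: 5 of the 7 genes met that stricter rule, as did 1.87% of all genes.

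Pdk4, the pyruvate dehydrogenase kinase, had the smallest 24 h mean among the 6 genes and the closest agreement between arrays. Its 24 h values were 1.24 and 1.35, 2.37-fold and 2.54-fold, with a mean of 1.29 ± 0.07, and 5.84% of all genes had a higher mean. Its 4 spots at that time lay between 1.12 and 1.57. At 4 h it lay at -0.06 and -0.35 (mean -0.21 ± 0.20), slightly below 0 on both arrays. The value of -0.06 averaged spots on opposite sides of 0, at 0.15 and -0.28.

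Hadhb, the thiolase-bearing subunit of the trifunctional protein, was high at 4 h and not at 24 h. Its 4 h values were 1.25 and 2.28, 2.37-fold and 4.87-fold, with a mean of 1.77 ± 0.73, and 2.33% of all genes had a higher mean. Its spots on the array with LPS in Cy5 lay at 2.04 and 0.45, so that 1 of the 4 spots was under 2-fold. At 24 h its values were 0.53 and 0.01, and its spots spread from -0.52 to 0.83.

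**Figure D2:**
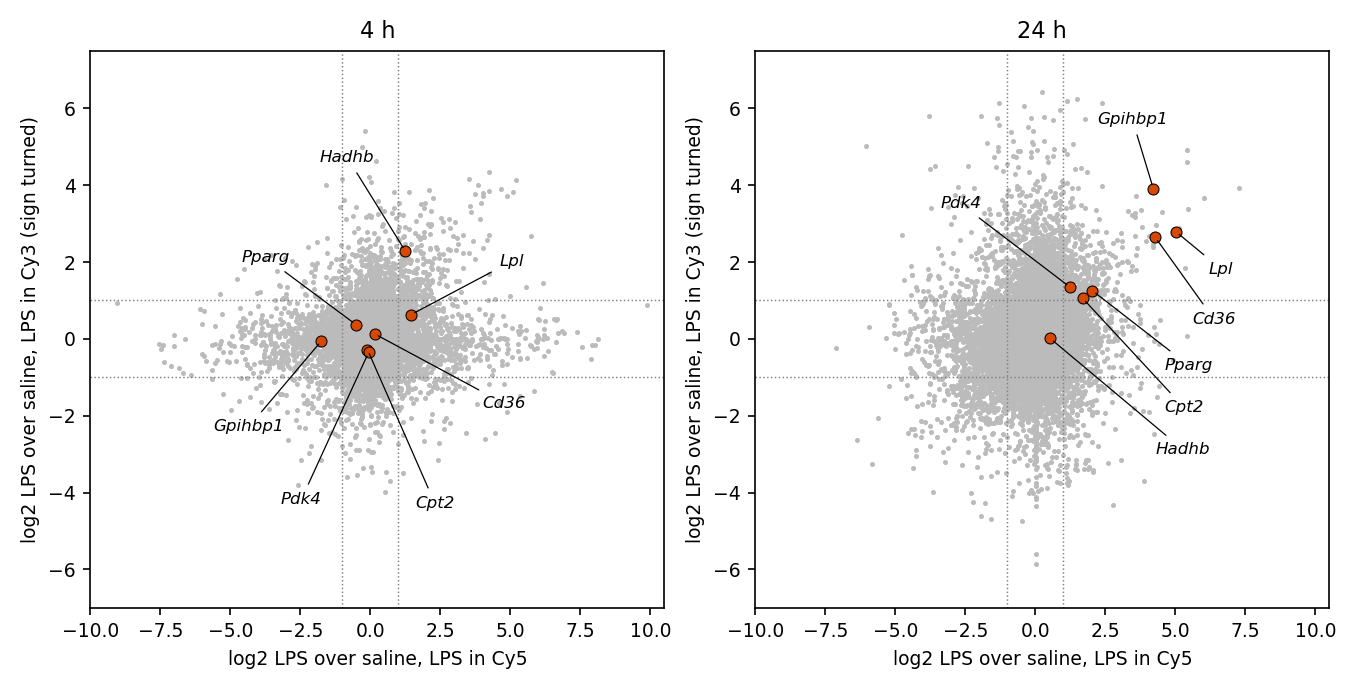
Centred log2 ratio of LPS over saline on the array with LPS in Cy5 (x axis) against the dye-reversed array with its sign turned (y axis), for all 11138 genes in grey and the 7 genes in orange, at 4 h (left) and 24 h (right); dotted lines mark 2-fold. At 24 h Gpihbp1, Lpl and Cd36 lie far out in the upper right, and Pparg, Cpt2 and Pdk4 lie past 2-fold on both arrays but nearer to it.

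The agreement of the arrays limits these values. Over all genes, 251 were called higher and 111 lower at 4 h while for 158 both arrays passed 2-fold on opposite sides of 0, and at 24 h 388 were called higher, 392 lower and 411 lay on opposite sides. The split at 4 h moved with the scaling, to 328 higher and 233 lower after quantile normalization. With each array scaled to the same spread, Gpihbp1, Lpl and Cd36 remained called at 24 h, whereas Pparg, Cpt2 and Pdk4 did not, and after quantile normalization Cpt2 was not called. With the sign of replicate 2 left as deposited, 0 of the 7 genes were called at either time. For genes called after turning the rule fixes this, since their arrays then lie on opposite sides of 0.

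Between the times, a call needed means at least 1 log2 unit apart and no overlap, with the lower array of one time above the higher array of the other. By this rule 6 of the 7 genes were higher at 24 h than at 4 h, against 9.43% of all genes, and Hadhb was lower, against 10.3%. The difference of 24 h minus 4 h was 4.97 for Gpihbp1, 3.32 for Cd36, 2.87 for Lpl, 1.72 for Pparg, 1.57 for Cpt2, 1.5 for Pdk4 and -1.49 for Hadhb. This order was that of the 24 h means except that Cd36 came before Lpl, whose 4 h mean was 1.04 where that of Cd36 was 0.14. With 1 replicate per time these differences were not tested. Leaving out replicate 2 of 4 h ended the call of Hadhb and took its difference to -0.97. Leaving out replicate 1 of 24 h took the difference of Lpl to 1.75.

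**Figure D3:**
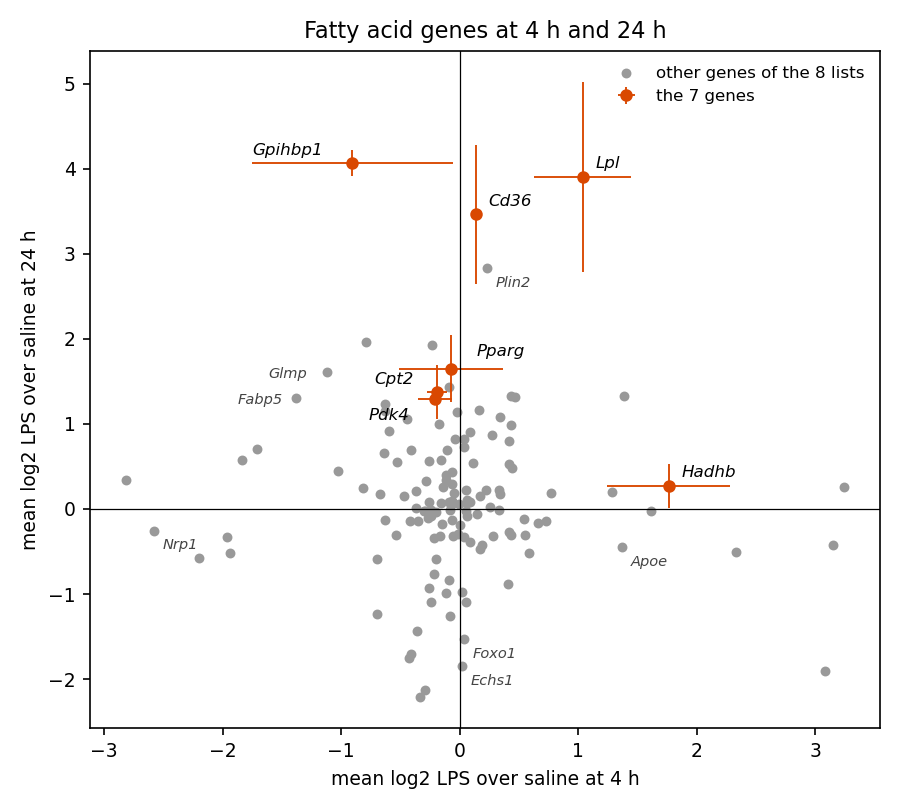
Mean log2 ratio of LPS over saline at 4 h (x axis) against 24 h (y axis) for the 7 genes in orange, with lines running to the values of the 2 arrays of each time, and for the other measured genes of 8 fatty acid lists in grey. Gpihbp1, Lpl and Cd36 lie highest, Plin2 is the next, and Hadhb lies to the right.

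The 7 genes were set beside 8 lists of other genes of fatty acid handling, 181 genes of which 131 were measured. Few of these were called. At 24 h 5 were higher and 3 lower, 3.82% and 2.29% of the 131, close to the 3.48% and 3.52% of all genes, and this split became 1 higher and 2 lower with scaled arrays, 2 and 2 after quantile normalization, and 3 and 4 with spots at exactly 1 left out. At 4 h 1 was higher and 2 were lower, 0.763% and 1.53%, against 2.25% and 0.997% of all genes. Their median was -0.07 at 4 h and 0.06 at 24 h.

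On the list of capillary lipolysis, 16 genes besides Gpihbp1 and Lpl were measured. At 24 h Glmp was the 1 gene of the 16 called higher, at 1.61 ± 0.58 after -1.12 ± 0.90 at 4 h, though not with scaled arrays. It encodes a lysosomal membrane glycoprotein, so nothing on lipolysis at the capillary wall is read from its call. Apoe, an apolipoprotein through which remnant lipoproteins are cleared, was called higher at 4 h, at 1.34 and 1.41 (mean 1.37 ± 0.05), and lay at -0.45 ± 0.27 at 24 h. Lipg, the endothelial lipase, was higher at 24 h than at 4 h by 2.16, but its 24 h arrays read 0.23 and 3.62. The inhibitor of lipoprotein lipase Angptl4 was not called, at 0.55 ± 0.23 and then at -0.31 ± 1.81 with 24 h arrays of 0.98 and -1.59. Lmf1, which folds the lipase in the endoplasmic reticulum, lay at 0.15 ± 0.21 and -0.06 ± 0.01, and the lipoprotein receptor Vldlr at 0.01 ± 0.36 and -0.19 ± 0.89.

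Of 25 other genes of fatty acid uptake, binding and activation, 2 were called higher at 24 h and 1 lower at 4 h. Fabp5, a cytosolic fatty acid binding protein, lay at -1.38 ± 0.75 at 4 h and at 1.31 ± 0.41 at 24 h. Cav1, the main protein of caveolae, in which CD36 partly resides, went from -0.63 ± 0.39 to 1.15 ± 0.19. Neither had every spot 2-fold at 24 h, and neither was called with scaled arrays, after quantile normalization or with spots at exactly 1 left out. Nrp1, a coreceptor of the VEGF family, was called lower at 4 h, at -2.19 and -2.97 (mean -2.58 ± 0.55), and lay at -0.26 ± 0.52 at 24 h. Fabp4, the fatty acid binding protein of capillary endothelium and adipocytes, was not called, at 0.43 ± 0.73 at 24 h. Between the times 7 of the 25 were higher at 24 h, namely Fabp5, Cav2, Nrp1, Acsl4, Cav1, Tcf15 and Slc27a4, by 1.29 to 2.68, and Got2 was lower, with a difference of -1.29. Tcf15, which with MEOX2 drives fatty acid transport genes in heart endothelium, lay at -1.94 ± 1.46 at 4 h and -0.52 ± 0.31 at 24 h, and Meox2 was not called at either time.

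Of 15 measured receptors and cofactors that work beside PPARG, 0 were called higher at 24 h and Foxo1, a transcription factor held inactive by insulin signalling, was called lower, at -1.58 and -1.47 (mean -1.53 ± 0.08). Ppara, the PPAR that prevails in cardiomyocytes, lay at -1.26 ± 0.61 at 24 h and its coactivator Ppargc1a at -1.09 ± 0.60, both lower than at 4 h by the rule between the times, with differences of -1.18 and -1.14. Neither was called between the times with scaled arrays. Ppara was also not called after quantile normalization. With spots at exactly 1 left out, Ppargc1a had no value on replicate 2 of 4 h for the call between the times, and was called lower at 24 h. Esrra, an orphan receptor that works with PGC-1 coactivators, lay at 1.06 ± 0.33 at 24 h, with arrays of 0.82 and 1.29, and was higher than at 4 h by 1.5. Rxra, the partner with which PPARG binds DNA, read 2.58 and 0.07 on the 24 h arrays and was not called.

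In the mitochondria, Cpt2 and Hadhb were set beside 24 other genes measured of the carnitine shuttle and beta oxidation, of which 0 were called higher at either time. Echs1, the enoyl-CoA hydratase of short-chain acyl groups, was called lower at 24 h, at -2.05 and -1.64 (mean -1.84 ± 0.30). The outer-membrane carnitine acyltransferase Cpt1a lay at 0.15 ± 0.83 at 24 h and Cpt1b at -0.01 ± 0.45, and the carrier Slc25a20 at 0.07 ± 0.63. The dehydrogenase Acadl read 2.01 and -0.86 on the 24 h arrays, and Acadm 1.19 and -0.10, so that neither was called. Acad10 was higher at 24 h than at 4 h by 1.08, and Acadsb and Echs1 were lower, with differences of -2.84 and -1.87.

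Beside Pdk4, 6 genes of the pyruvate dehydrogenase group were measured. Dld, the dihydrolipoamide dehydrogenase of the complex, was called higher at 24 h, at 1.27 and 1.05 (mean 1.16 ± 0.16), with not every spot 2-fold, and was not called with scaled arrays or after quantile normalization. The kinase Pdk2 read 0.01 and 3.21 on the 4 h arrays and -0.02 ± 0.40 at 24 h, and was not called.

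Genes of triglyceride storage held the list gene nearest in size to the lipolysis genes. Plin2, the coat protein of cytosolic lipid droplets, read 3.10 and 2.56 at 24 h (mean 2.83 ± 0.38) after 0.23 ± 0.39 at 4 h, with every 24 h spot 2-fold. It was the 1 of 21 genes of this list called higher at 24 h. Lpin2, a phosphatidate phosphatase, was called lower at 4 h, at -1.96 ± 0.70, with not every spot 2-fold. Pnpla2, the adipose triglyceride lipase, its activator Abhd5, and Plin3 were higher at 24 h than at 4 h, by 1.52, 1.11 and 1.06. In peroxisomes, Amacr was called lower at 24 h, at -1.23 ± 0.08 with not every spot 2-fold, though not with scaled arrays or after quantile normalization, and Scp2 was higher than at 4 h by 1.18. Of 11 genes of fatty acid synthesis 0 were called at 4 h or 24 h; between the times Thrsp was higher by 1.51 and the desaturases Fads1 and Fads2 were lower, with differences of -1.10 and -3.58.

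Between the times, 18 of the 131 genes were higher at 24 h and 9 lower, 13.7% and 6.87%, against 9.43% and 10.3% of all genes. Of these 27 differences, 12 moved by over 1.5 times when 1 array was left out, and their smallest values were as follows. Without replicate 2 of 4 h, the difference was -1.35 for Acadsb, 1.22 for Cav2, 0.38 for Tcf15 and -0.65 for Ppara. Without replicate 1 of 4 h, Fads2 was -0.53 and Thrsp 0.57. Without replicate 1 of 24 h, Got2 was -0.51 and Pnpla2 0.39, and without replicate 2 of 24 h Lipg was 0.46, Abhd5 0.35, Acad10 0.53 and Ppargc1a -0.72. Some that moved less also came under 1 log2 unit and lost their call. These were Scp2 at 0.82 and Fads1 at -0.86 without replicate 1 of 4 h, and Plin3 at 0.87 without replicate 1 of 24 h. The arrays of Acadsb read 0.85 and 3.82 at 4 h and 0.41 and -1.42 at 24 h. Some calls between the times also depended on the processing. With scaled arrays Scp2, Thrsp, Got2, Ppara and Ppargc1a were not called. After quantile normalization Thrsp, Got2 and Ppara were not. Thrsp was also not called without centring. With spots at exactly 1 left out, Ppargc1a had no value on replicate 2 of 4 h and could not be called between the times. In that setting it was called lower at 24 h. Other list genes became called in these settings.

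RNA of other cells could enter such a preparation, and fewer cells of a type cannot be told apart from less RNA per cell. Since the table holds ratios and no levels, whether endothelial markers were present and those of other cells absent could not be checked. Of 19 endothelial markers measured, Eng and Kdr, an accessory receptor for TGF-beta family ligands and the main VEGF receptor, were called lower at 4 h, at -1.87 ± 0.84 and -1.89 ± 0.75, and higher at 24 h, at 3.91 ± 0.85 and 2.21 ± 0.48. Cldn5, a tight junction protein, was called higher at 4 h, at 1.29 ± 0.10. The endothelial median was 0.01 at 4 h and 0.32 at 24 h, and the means at 24 h ranged from -1.87 to 3.91, with Pecam1 at -0.01 ± 0.87 and Cdh5 at -0.42 ± 0.10.

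Lpl, Cd36 and Pdk4 are also expressed by cardiomyocytes, and Lpl, Cd36 and Pparg by adipocytes. Of 23 cardiomyocyte markers 0 were called higher at 24 h and 1, the calcium channel Ryr2, was called lower, at -1.40 ± 0.11. Their 24 h means ranged from -1.40 to 0.68 with a median of 0.13. Of 9 adipocyte markers, Retn was called higher at 24 h, at 1.04 ± 0.01, the 24 h means ranged from -2.18 to 1.04, and the median was 0.21. Adipoq, the adipocyte hormone, read -5.04 and 0.67 on the 24 h arrays.

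Of 15 markers of monocytes and macrophages 0 were called, with medians of -0.18 and -0.26. Of 13 neutrophil markers 3 were called higher at 24 h, S100a8 at 2.58 ± 1.17, S100a9 at 1.55 ± 0.08 and Fpr2 at 1.20 ± 0.08, and Ngp lower at -1.62 ± 0.82. The lymphocyte marker Cd5 was called lower at 24 h, at -2.00 ± 1.00. Of 6 erythroid markers Klf1 was called higher at 24 h, at 2.01 ± 0.24, and Car1 lower, at -1.75 ± 0.11, and their 24 h median, 0.71, was the highest of the 10 marker lists. Actg2, a smooth muscle actin, was called higher at 4 h and lower at 24 h, at 2.18 ± 0.58 and -2.42 ± 1.47. Of 12 fibroblast and 7 platelet markers 0 were called, with 24 h medians of -0.35 and 0.47. Not every spot was 2-fold for Kdr at 4 h or for Ryr2, Retn, Fpr2, Ngp, Klf1 and Actg2 at 24 h. The part of these cells in the values of the 7 genes was not tested.

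**Figure D4:**
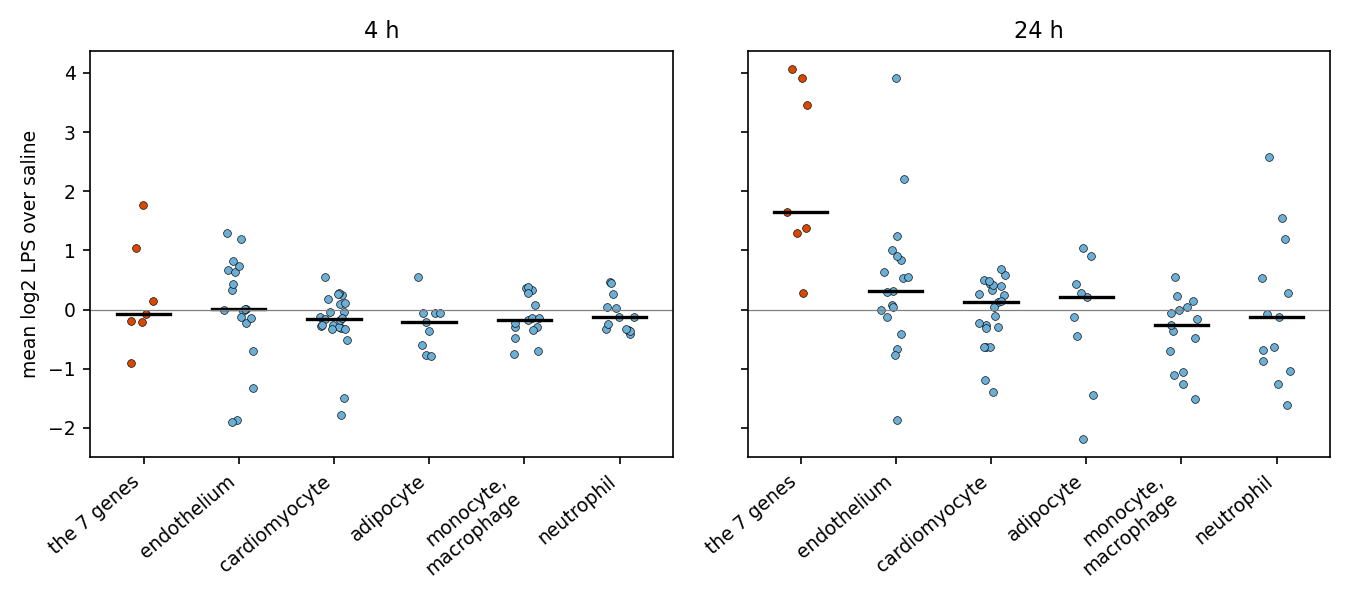
Mean log2 ratio of LPS over saline (y axis) at 4 h (left) and 24 h (right) of the 7 genes in orange and of the measured markers of 5 cell types in blue; each point is a gene, black bars are medians, and sideways scatter has no meaning. At 24 h the median of the 7 genes is 1.65, and those of the 5 marker lists shown lie between -0.26 and 0.32. Since the 7 genes were picked with these ratios known, nothing is read from this difference. Over all 10 marker lists the 24 h medians ran from -0.35 to 0.71.

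The genes most like Gpihbp1 and Lpl were sought by Euclidean distance over the 4 arrays among 8454 genes without a spot at a ratio of exactly 1. For Gpihbp1 they were the DNA repair gene Mgmt at a distance of 2.09, Cd36 at 2.29, the ribosomal protein genes Rpl27 and Rps23 at 2.46 and 2.55, and Eng at 2.55, where the median over all genes was 6.16. For Lpl they were Rpl12 at 1.29, Ier3 at 1.43, Timp3 at 1.48, Rhoc at 1.56 and Cd36 at 1.59, with a median of 6.15. Cd36 was among the 5 nearest of both. Cd36, Gpihbp1 and Lpl were picked with their values on these arrays known, so nothing is read from their closeness. Among the 7 genes the closest pair was Cpt2 and Pdk4, at 0.541, and Pparg lay at 0.865 from Cpt2 and 1.17 from Pdk4. The distances of Cpt2 use its value of 1.06 on the reversed 24 h array, which averages 2.18 and a spot at exactly 1. Such a spot kept Cpt2 and Gpihbp1 out of the genes searched, though Gpihbp1 was a target. The 4 arrays are few points, and genes high at 24 h alone lie near each other by this measure.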

How the data were processed

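The authors deposited log2 ratios for 32448 spots on each of 4 arrays, with a median of 3e-07 per array and 10.2% to 13.4% of spots at a ratio of exactly 1 (log2 within 1e-06 of 0). Background correction, dye normalization and any spot filter were not given in the sources used here, and the table holds no intensities. The SD of the spots of an array was 0.98 to 1.59, and duplicate spots correlated at 0.19 to 0.32. Over all genes the turned arrays of a time correlated at 0.12 at 4 h and at 24 h. The disagreement of spots and of arrays limits the precision, as does the number of arrays.

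Spots were averaged per oligonucleotide and oligonucleotides per gene with Python 3.11.15, numpy 2.4.6 and pandas 2.3.3, the sign of LPS-in-Cy3 arrays was turned, and the gene median of every array was subtracted. Of the spots, 24344 (75.0%) had 1 gene symbol in the platform annotation, 98 several and 8006 were not listed, which gave 11138 genes. The calling rule and a fit with limma 3.58.1 in R 4.3.3, as an alternative, were tested on simulated data. The simulated shifts were larger than the means of Pparg, Cpt2, Pdk4 and Hadhb, so these tests do not cover calls of that size.

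The 7 genes, the 8 fatty acid lists and the 10 marker lists were chosen with earlier results of these data known. Named are all 7 genes, every list gene called at a time or between the times, every marker called at a time, and the 5 nearest genes to Gpihbp1 and Lpl. Genes named without a call (Angptl4, Lmf1, Vldlr, Fabp4, Meox2, Rxra, Cpt1a, Cpt1b, Slc25a20, Acadl, Acadm, Pdk2, Pecam1, Cdh5 and Adipoq) were added for their known roles after their values were seen. Alternatives were other scalings, spots at exactly 1 left out, other fold thresholds, the sign not turned, and each array left out.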

Additional observations from a re-analysis of the deposited data

Results flagged for a closer look

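Gpihbp1, Cpt2 and Pdk4 had both 4 h arrays below 0 and both 24 h arrays above it, a difference between the times that was not tested. The means differed by 4.97, 1.57 and 1.5 log2 units, 24 h minus 4 h. Of all 11138 genes 719, or 6.46%, showed this order of signs. For Gpihbp1 the 4 h value nearest to 0, -0.06, held 1 spot at a ratio of exactly 1. For Pdk4 the nearest was -0.06, the mean of spots on opposite sides of 0, at 0.15 and -0.28.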

How the results depend on the processing

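The means of the 7 genes kept their sign under every alternative that kept both arrays of a time and turned replicate 2; at 24 h they ran from 3.18 to 4.2 for Gpihbp1, 3.05 to 3.93 for Lpl, 2.71 to 3.60 for Cd36, 1.29 to 1.67 for Pparg, 1.08 to 1.93 for Cpt2 and 1.02 to 1.32 for Pdk4. With the sign not turned, the 24 h means became 0.15 for Gpihbp1, 1.12 for Lpl, 0.82 for Cd36, 0.39 for Pparg, 0.32 for Cpt2 and -0.052 for Pdk4, the 4 h mean of Hadhb became -0.52 and those of Cpt2 and Pdk4 turned to 0.086 and 0.14, and the calls were 0 of the 7 genes at 4 h, 0 at 24 h and 0 between the times, 158, 411 and 1298 of all genes, and 1 and 4 of the fatty acid genes at 4 h and 24 h. At 1.5-fold the calls were 2 of the 7 at 4 h, 941, 1808 and 3338 of all genes at 4 h, 24 h and between the times, and 12 and 23 fatty acid genes; at 3-fold they were 0, 3 and 4 of the 7, 126, 235 and 1066 of all genes, and 1 and 2 fatty acid genes. With every spot required to be 2-fold, 0 of the 7 were called at 4 h, with 175 of all genes, and 406 of all genes and 4 fatty acid genes were called at 24 h. Scaled arrays gave 3 of the 7 at 24 h, 557 and 424 of all genes, and 3 fatty acid genes at 24 h; quantile normalization gave 561 of all genes at 4 h and 4 fatty acid genes at 24 h. Taking arrays as separate samples, limma found 0 genes at an adjusted p under 0.05 at 4 h, 24 h or between the times (475, 1126 and 638 at an unadjusted p under 0.05), thus 0 of the 7 and 0 fatty acid genes. Leaving out an array leaves 1 at its time, a value with no test, and 2 at the other time. Of the 7 genes, 1 to 3 then passed 2-fold at 4 h, 6 at 24 h and 6 to 7 between the times. Of all genes these were 1414 to 2317, 3239 to 3408 and 2968 to 4001. Of the fatty acid genes they were 14 to 17 at 4 h and 33 to 36 at 24 h. Apart from what each rule fixes, the cause of these shifts was not tested. The 158 and 411 of all genes called with the sign not turned are those on opposite sides of 0 after turning. With spots at exactly 1 left out, fatty acid genes called at 24 h split into 3 higher and 4 lower instead of 5 and 3. Without intensities, dim spots could not be set apart. No paired analysis was possible because the replicate number marks the dye orientation and each time is 1 replicate.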

Other observations

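Some genes of fatty acid handling had a large ratio on 1 array of a time and a value near 0 on the dye-reversed one; these were chosen after their values were seen. At 4 h Fads2 read 6.21 and 0.10 and Pdk2 0.01 and 3.21. At 24 h Lipg read 0.23 and 3.62, Pnpla2 2.56 and 0.30 and Rxra 2.58 and 0.07. Against these, the 24 h arrays of Gpihbp1 read 4.21 and 3.91, those of Lpl 5.02 and 2.79 and those of Plin2 3.10 and 2.56. Gpihbp1 and Lpl were picked with these values known. At 4 h Gpihbp1 itself read -1.75 and -0.06.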
